A study of Mus musculus with 8 samples.

Results

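miR-210 was read as 2 entries, mmu-miR-210-3p and mmu-miR-210-5p (its 3p and 5p mature arms), out of 1418 entries for 1281 mature miRNAs in small RNA libraries of mouse osteoblast cells and bone. Both were found by name, but miR-210 was chosen by its measured values, the rise of the 3p arm over days of culture in these same libraries. Its course over days is therefore described and carries no test.

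miR-210 is a small regulatory RNA best known for its induction by low oxygen, when the transcription factor HIF-1 drives its gene. The mature strand guides Argonaute to transcripts that match its seed, and reported targets include Iscu (an iron-sulfur cluster scaffold of mitochondria), Efna3 (an ephrin ligand) and Acvr1b (an activin receptor). In bone biology it has been reported to promote osteoblast differentiation.

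The sequences below show why the 2 arms can be counted apart. Capitals mark the seed (bases 2 to 8) in each mature arm and both arms in the hairpin, all read 5′ to 3′ from RefSeq on GRCm38.p6.
miR-210-3p: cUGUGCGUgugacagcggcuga
miR-210-5p: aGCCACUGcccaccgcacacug
Mir210 hairpin: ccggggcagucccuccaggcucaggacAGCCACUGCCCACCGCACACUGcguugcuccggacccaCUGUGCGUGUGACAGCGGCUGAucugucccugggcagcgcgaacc

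Each arm is 22 bases long, and 16 bases lie between them in the 110-base hairpin. In the minimum free energy fold, 16 bases of the 5p arm paired with bases of the 3p arm. The arms are rich in G and C, at 63.6% of the 3p arm and 68.2% of the 5p arm. No other entry among the 1679 mature miRNA names of the RefSeq table carried either seed, so miR-210 has no seed relative there. The 7 bases complementary to the 3p seed, as they would stand in a target's DNA, are ACGCACA.

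The single gene, Mir210, lies on the minus strand at chr7:141221384-141221493 (GRCm38.p6), with the 3p arm at chr7:141221407-141221428 and the 5p arm at chr7:141221445-141221466. No other gene of GENCODE M21 overlaps the hairpin, which is therefore annotated as neither exonic nor intronic. The nearest genes on each side are protein coding and on the plus strand: Rassf7 ends 2726 bases away and Phrf1 starts 7291 bases away. All 16 values of the arms (2 arms in 8 libraries) were whole numbers within 0.005, although many other entries of the table hold fractional counts.

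The libraries fall into 2 materials. MC3T3 E1 sc4 is a cloned line of mouse calvarial pre-osteoblasts, used here at passage 10 to 15 and given 50 µg/ml ascorbic acid and 4 mM β-glycerol phosphate to differentiate. It is represented by 1 library at each of days 0 (undifferentiated), 6, 10, 17 and 24, each made from equal RNA of 3 cultures, so no day has a replicate. The names of the 4 later MC3T3 columns carry the mark "veh" and that of day 0 does not; what it stands for is not stated, so day 0 may differ from the later days in more than time. The other 3 libraries come from calvaria (parietal and frontal bones of the skull vault) of C57/B6 Prrx1-Cre+ female mice aged 2 to 3 days, after a short digestion with collagenase and trypsin. Prrx1-Cre is a Cre recombinase driven in limb and skull mesenchyme, and no floxed allele is named beside it. All samples carry the strain label C57BL/6. Nothing in the labels tells if the calvaria libraries stand for 3 different mice, so the spread behind each p-value may be technical. No oxygen level is given for any group in the sources used here.

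Library totals ranged from 1183011 to 4031962 estimated counts. The tables hold small RNAs only, so mRNA markers of osteoblasts and mRNAs induced by hypoxia were not measured. Among miRNAs that mark other cell types, 2 of 2 endothelial arms of miR-126 summed to 6.2 to 19 RPM (counts scaled to library size) in MC3T3 and 9028 to 20323 RPM in calvaria. The summed cartilage list (4 arms of miR-140 and miR-455) held 18218 to 28775 RPM in MC3T3 and 61235 to 111611 RPM in calvaria, and the 7 blood cell miRNAs held 38.9 to 111 and 308 to 454 RPM. None of these 3 lists had a member at 0 in all MC3T3 libraries. The cartilage arms were abundant in the cloned MC3T3 line, so their sum does not stand for cartilage cells alone. Striated muscle (6 miRNAs; miR-208b-3p at 0 in all MC3T3 libraries) held 213 to 574 RPM in MC3T3 and 283 to 642 in calvaria. Nervous system (4; miR-124-3p at 0 in MC3T3) held 329 to 460 and 603 to 685 RPM, and epithelium (5) held 2.24 to 5.46 and 16.8 to 26.2 RPM.

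How the guide arm behaves over osteogenic culture was read first. miR-210-3p was lowest at day 0 and highest at day 17. It held 100.2 RPM at day 0 (95% exact Poisson interval 90.7 to 110, from 404 counts) and 356.5 RPM at day 6 (336 to 378, 1125 counts). At day 10 it held 1308 RPM (1268 to 1349, 4062 counts), at day 17 3311 RPM (3254 to 3368, 13045 counts) and at day 24 2673 RPM (2612 to 2735, 7331 counts). No 2 of these 5 intervals overlap. The reads carry no molecular identifiers, so intervals cover counting error only and say nothing about the spread between cultures. The rank of the arm among mature miRNAs by abundance went from 134 at day 0 to 106, 58 and 41, and was 43 at day 24. At day 17 it made up 0.331% of all counts, against 0.01% at day 0.

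**Figure D1:**
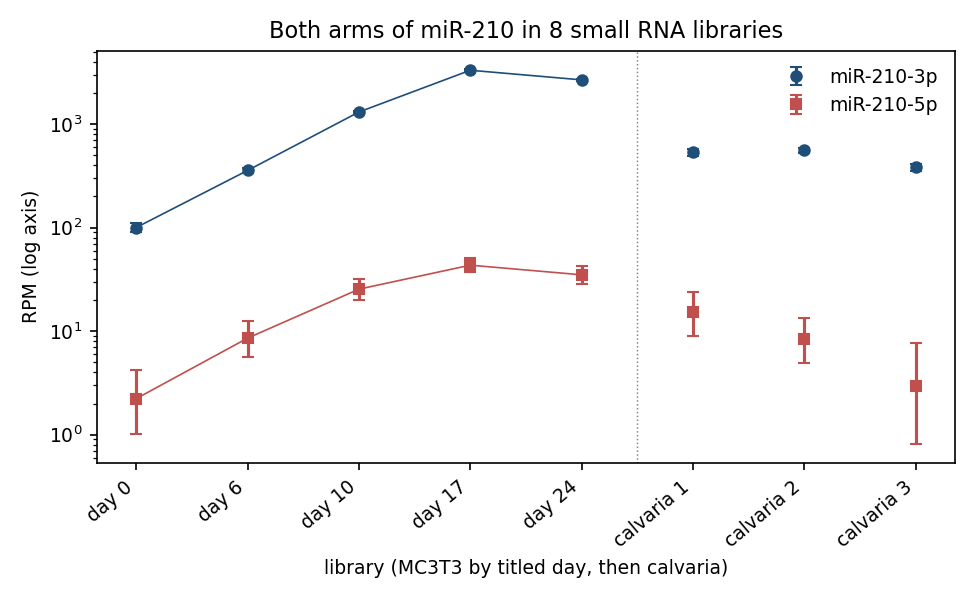
RPM of miR-210-3p (circles) and miR-210-5p (squares) on a log axis in the 5 MC3T3 libraries by titled day, joined by lines, and in the 3 calvaria libraries. Bars are exact 95% Poisson intervals of the count. Both arms are lowest at day 0 and highest at day 17, and the calvaria libraries hold 381.1 to 560.5 RPM of the 3p arm.

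The course was not a straight line. In RPM, day 6 stood 3.56-fold above day 0 (95% exact binomial interval 3.17 to 4), day 10 3.67-fold above day 6 (3.43 to 3.92) and day 17 2.53-fold above day 10 (2.44 to 2.62). Day 24 was at 0.807 of day 17 (0.785 to 0.831). The first step depends most on how libraries are scaled. miR-21a-5p alone held 455477 RPM at day 0 and 112325 to 201369 RPM later, which lowers the RPM of every other miRNA at day 0. With TMM scaling, which sets libraries to a common level for most miRNAs (factors 0.6944 at day 0 and 1.21 at day 6), the day 6 step was 2.04-fold (1.82 to 2.29) and the day 10 step 4.49-fold (4.21 to 4.8). The steps to day 17 (2.4-fold) and day 24 (0.881) changed little.

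Between the ends, day 24 stood 26.7-fold above day 0 in RPM, 19.4-fold with TMM, 20.5-fold with DESeq2 size factors and 19.1-fold with upper quartile factors. The day 17 library stood 33-fold above day 0 in RPM and 22-fold with TMM. Under all 4 scalings the level at day 24 was below that at day 17, at 0.807 to 0.889 of it. The linear fit over days gave a 24-day log2 change of 4.93 ± 0.93 (SE, 5 libraries), moving to 3.91 without the day 0 library and 6.73 without day 24. As a description, only miR-184-3p had a larger RPM ratio of day 17 to day 0 among 223 mature miRNAs with at least 100 counts in 2 or more MC3T3 libraries. For day 24 to day 0 only miR-184-3p and miR-195a-5p did, and the median ratio was 1.53. These 2 were named after their values were seen. miR-184-3p had 1 count at day 0 and 112 at day 24 (ratio 163, interval 29 to 6561), and miR-195a-5p went from 23.64 to 660.9 RPM (ratio 28, interval 22.6 to 34.4).

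The passenger arm followed at a far lower level. miR-210-5p is the strand that is mostly discarded after the duplex is opened. It held 2.23 RPM at day 0 (1.02 to 4.24, 9 counts), 8.56 RPM at day 6 (5.64 to 12.4, 27 counts) and 25.45 RPM at day 10 (20.1 to 31.7, 79 counts). It held 43.4 RPM at day 17 (37.1 to 50.4, 171 counts) and 35.01 RPM at day 24 (28.4 to 42.7, 96 counts). Days 0, 6 and 10 stand in that order without overlap of their intervals, while day 24 overlaps with both day 10 and day 17. The RPM ratio of day 24 to day 0 was 15.7 (7.93 to 35.3), and 11.4 (5.77 to 25.7) with TMM. The fitted 24-day log2 change was 3.59 ± 0.86 (SE, 5 libraries), or 2.48 without day 0 and 5.48 without day 24. On the log2(RPM + 10) scale it was 2.06, since the added 10 exceeds the early levels.

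In calvaria both arms were present. miR-210-3p held 534.2 RPM in calvaria 1 (493 to 578, 632 counts), 560.5 RPM in calvaria 2 (528 to 594, 1134 counts) and 381.1 RPM in calvaria 3 (349 to 416, 512 counts), a mean of 492 ± 96.9 (SD, n = 3). Calvaria 1 and 2 overlapped, and calvaria 3 was lower than both. The rank of the arm was 104, 104 and 110. miR-210-5p held 15.22 RPM (9.02 to 24, 18 counts), 8.4 RPM (4.9 to 13.5, 17 counts) and 2.98 RPM (0.811 to 7.62, 4 counts), a mean of 8.87 ± 6.13 (SD, n = 3). The intervals of calvaria 1 and 3 do not overlap for the 5p arm, and with 4 to 18 counts the arm is poorly measured in bone. Calvaria 3, the lowest for both arms, also held the highest endothelial sum (20323 RPM against 9028 and 10749) and the lowest cartilage sum (61235 RPM against 111611 and 110887). Its blood cell sum (454 RPM against 308 and 362) and striated muscle sum (642 RPM against 368 and 283) were the highest as well. The part of these in the difference was not tested. In bulk samples, fewer cells of a type and less RNA per cell cannot be told apart.

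Placed among the days of culture, bone lay between day 6 and day 10 for the guide arm. The order of 3p levels in RPM was day 0, day 6, calvaria 3, calvaria 1, calvaria 2, day 10, day 24 and day 17. Day 6 and calvaria 3 overlapped within counting error in RPM (ratio 0.935, interval 0.842 to 1.04), though with TMM day 6 was lower (0.805, 0.724 to 0.895). Day 10 exceeded the calvaria libraries by 2.33-fold to 3.43-fold, and day 17 by 5.91-fold to 8.69-fold. Each calvaria library exceeded day 0, by 3.8-fold to 5.59-fold in RPM and 2.54-fold to 3.66-fold with TMM. For the 5p arm the order was day 0, calvaria 3, calvaria 2, day 6, calvaria 1, day 10, day 24 and day 17, and every pair of neighbours overlapped.

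Whether bone and cultured cells differ in miR-210 was asked across all entries with the edgeR quasi-likelihood test. Set against all 5 MC3T3 libraries, neither arm passed. miR-210-3p had a log2 difference (calvaria minus MC3T3) of -1.75 ± 0.90 (SE; adjusted p = 0.109 by Benjamini-Hochberg in edgeR, 3 against 5 libraries). miR-210-5p had -1.49 ± 0.83 (adjusted p = 0.139 in the same test). So 0 of 2 arms passed, where 66.4% of the 551 entries tested did. At an unadjusted p under 0.05 it was also 0 of 2 in this edgeR fit with TMM scaling, beside 385 of all 551 entries. The margin depended on the scaling. With upper quartile factors the adjusted p was 0.054 for the 3p and 0.0591 for the 5p arm (edgeR), where 394 of all 551 entries passed. The DESeq2 Wald test called neither arm and 331 of all entries. limma called neither arm as well, beside 347 of all entries with 1 RPM added and 305 with 10 RPM added. The MC3T3 mean was 1550 ± 1409 RPM for the 3p arm (SD over 5 days) and its lowest and highest days differed 33-fold, so the calvaria levels lie inside the MC3T3 range. That spread is the course by which miR-210 was chosen, and it widens the error of the test. The missed pass therefore does not show that bone and cultured cells hold equal levels. limma on log2(RPM + 1), which averages logarithms, gave -0.79 for the 3p arm. Without the day 0 library the fitted differences were -2.02 for the 3p arm and -1.74 for the 5p arm. Their adjusted p values fell under 0.05 (0.0162 and 0.0307, edgeR). They are not read as a test, since day 0 is the low end of the course that chose miR-210.

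The sign of the difference follows the days used, as the order of levels above already fixes. Against days 0 and 6 alone, the fitted log2 difference (calvaria minus MC3T3) of miR-210-3p was 1.07 ± 0.39 (SE), and against days 17 and 24 alone it was -2.64 ± 0.19. For miR-210-5p the values were 0.63 ± 0.63 and -2.21 ± 0.45. These are descriptions with no test, since miR-210 was chosen by its course over the same days. The endothelial, cartilage and blood cell sums given above differ between the materials, and their part in these differences was not tested.

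The balance of the arms sets the 5p counts against both arms together. The 3p counts, whose rise chose miR-210, make up most of that sum, so its course over days is a description. The 5p arm made up 2.18% of miR-210 counts at day 0 (95% exact binomial interval 1 to 4.1), 2.34% at day 6 (1.55 to 3.39), 1.91% at day 10 (1.51 to 2.37), 1.29% at day 17 (1.11 to 1.5) and 1.29% at day 24 (1.05 to 1.58). In calvaria it made up 2.77% (1.65 to 4.34), 1.48% (0.863 to 2.35) and 0.775% (0.212 to 1.97). The 3p arm was thus the main product in every library, at 97.23% to 99.22% of the counts. Per count of the 5p arm there were 41.7 to 51.4 counts of the 3p arm on days 0 to 10, and 76.3 and 76.4 on days 17 and 24. The days with most miR-210 therefore had the lowest 5p shares of the MC3T3 libraries; the interval of day 17 lies below those of days 6 and 10, while day 24 overlaps with both and day 0 overlaps with all. No test was made of it.

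**Figure D2:**
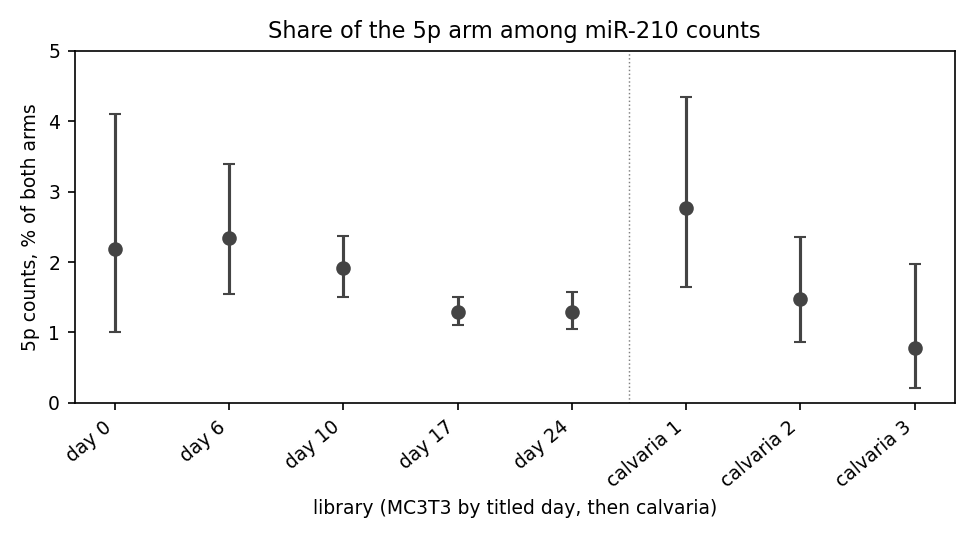
Counts of the 5p arm as a percentage of all miR-210 counts in each library, with exact 95% binomial intervals. The MC3T3 libraries lie between 1.29% and 2.34% and the calvaria libraries between 0.775% and 2.77%, so the materials overlap.

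The materials did not differ detectably in arm balance. The mean 5p share was 1.67% ± 1.01 in calvaria (SD, n = 3) and 1.8% ± 0.491 in MC3T3 (SD, n = 5), a difference of -0.13 percentage points (exact two-sided permutation test, p = 0.857; the smallest p that 3 against 5 libraries allow is 0.0357). Without calvaria 3 the direction turned, and the 3p share in calvaria minus that in MC3T3 was -0.32 points (exact permutation test, p = 0.571). The 5 MC3T3 shares come from different days and rest mostly on the 3p counts that chose miR-210. They are not replicates of 1 condition, so these tests do not show that the balance is equal.

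Which miRNAs have a course most like that of miR-210-3p was read from log2 TMM-scaled counts per library size. Over the 5 MC3T3 days, among 222 other mature miRNAs with at least 100 counts in 2 or more libraries, the closest by Pearson correlation were let-7c-5p (r = 0.992), miR-378a-5p (0.991), miR-193b-3p (0.989) and miR-365-3p (0.984). With 5 points a high r is common: 30 of the 222 reached 0.9. The likeness is one of shape and not of size. let-7c-5p, a member of the growth-restraining let-7 family, held 15081 RPM at the start, 40566 on day 17 and 37109 on day 24, that is 2.46-fold from day 0 to day 24. miR-378a-5p, from an intron of the metabolic coactivator gene Ppargc1b, went from 23.81 RPM to 86.79 at day 17 and 68.92 at day 24. miR-193b-3p and miR-365-3p, which come in part from neighbouring genes, had day 24 ratios of 2.35 and 2.27. On the log2 scale the 4 spanned 0.74 to 1.3 between their lowest and highest day, against 4.49 for miR-210-3p.

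**Figure D3:**
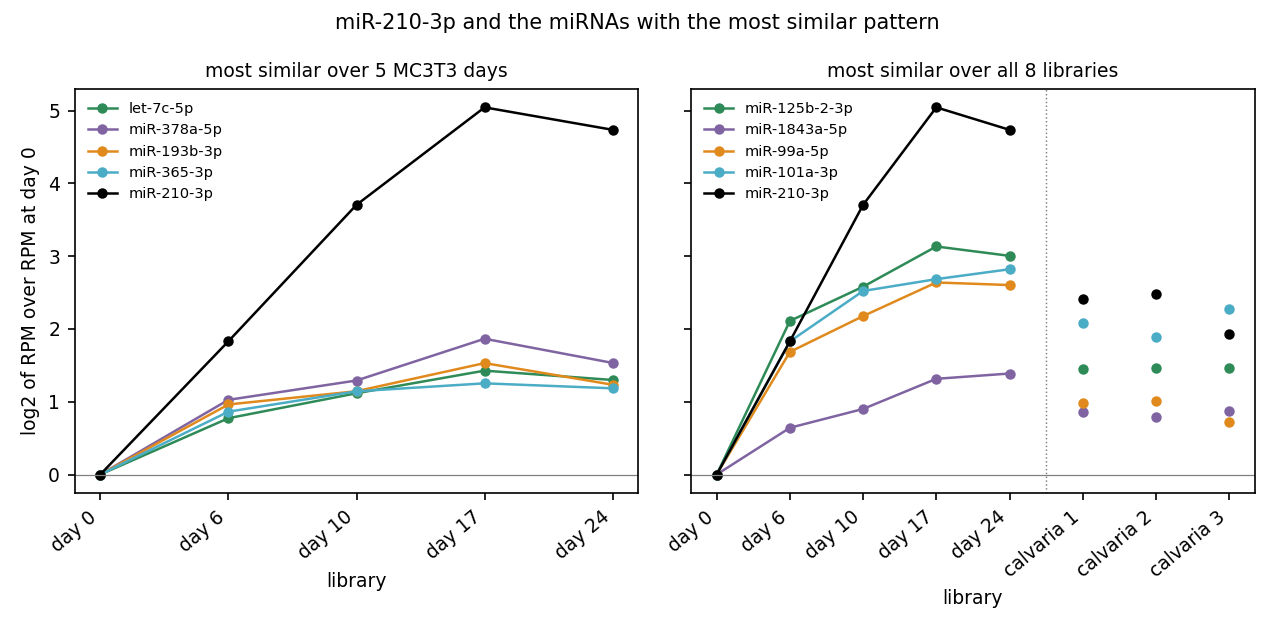
Log2 of RPM relative to day 0 for miR-210-3p (black) and the 4 most similar miRNAs over the 5 MC3T3 days (left) or over all 8 libraries (right, calvaria as separate points after the dotted line). Every course peaks at day 17 in the left panel, with miR-210-3p the steepest.

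Over all 8 libraries the closest of 257 miRNAs were miR-125b-2-3p (r = 0.948), miR-1843a-5p (0.935), miR-99a-5p (0.922) and miR-101a-3p (0.907), and only these 4 reached 0.9. The points share libraries and depth, and the correlations are descriptions. miR-125b-2-3p, the passenger arm of a miR-125b gene, held 67.71 RPM at day 0, 594.4 at day 17, 543.7 at day 24 and 187 ± 1.36 in calvaria (SD, n = 3). miR-99a-5p, from a cluster with a let-7c gene, held 13160, 82000 and 80008 RPM on those days and 24751 ± 2703 in calvaria. miR-101a-3p, named in the title of the study, held 1015, 6528 and 7174 RPM and 4323 ± 573 in calvaria. Like miR-210-3p, each of these 3 lay in calvaria between day 0 and day 17.

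Other miRNAs reported to be raised in hypoxic cell cultures were followed over the same days. All 21 listed miRNAs were in the table, and 19 of them, as 25 entries, had enough counts for the day trend. Of these entries 0 rose and 1 fell with edgeR (adjusted p under 0.05), where 1.28% of the 469 entries rose and 1.71% fell, 2.99% in all. At an unadjusted p under 0.05, 6 had a positive and 2 a negative slope, beside 50 and 53 of all 469 entries. The DESeq2 Wald test called 2 higher and 1 lower, beside 19 and 11 of all entries. The median 24-day log2 change was 0.49 over the 25 entries and -0.12 over all entries. Library totals move these medians to 0.72 and 0.11 and upper quartile factors to 0.25 and -0.37. Some miRNAs count here as 2 entries with near-equal fits. Summed per mature miRNA, the median was 0.44 over the 19 miRNAs and -0.12 over all 391. At an unadjusted p under 0.05, 4 of the 19 then had a positive and 2 a negative slope, beside 40 and 51 of the 391. With library totals 2 entries rose, both of the same mature miRNA miR-181a-5p, and 2 fell, beside 6 and 5 of all 469 entries. Without the day 0 library 7 entries rose and 1 fell, the rising ones among miR-181a, miR-181b, miR-195a and miR-27a, beside 35 and 40 of all 459 entries in that fit.

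The most abundant members were miR-21a-5p, a growth-promoting miRNA, at 217548 RPM over the MC3T3 days (24-day log2 change -2.11 ± 0.54, adjusted p = 0.0762, edgeR), and miR-26a-5p at 31806 RPM (0.49 for each of its 2 entries). They were followed by miR-125b-5p at 13755 RPM (-0.52 and -0.51), miR-24-3p at 7732 RPM (0.42 for both entries), miR-181a-5p at 4606 RPM (1.61 for both, adjusted p = 0.0994) and miR-27a-3p at 4185 RPM (0.97). The largest positive value belonged to miR-195a-5p of the miR-15/16 family, at 3.58 ± 1 (adjusted p = 0.0916). It passed in the DESeq2 Wald test and, in edgeR, without a filter, without day 24 and on a log2 day scale. It did not pass in limma or with other scalings in edgeR. The fitted value of miR-210-3p was 4.93 and that of miR-210-5p 3.59, next to that of miR-195a-5p. In RPM the ratio of day 24 to day 0 was 28 for miR-195a-5p (22.6 to 34.4). It was 26.7 for miR-210-3p (24.1 to 29.6), with overlapping intervals, and 15.7 for miR-210-5p.

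**Figure D4:**
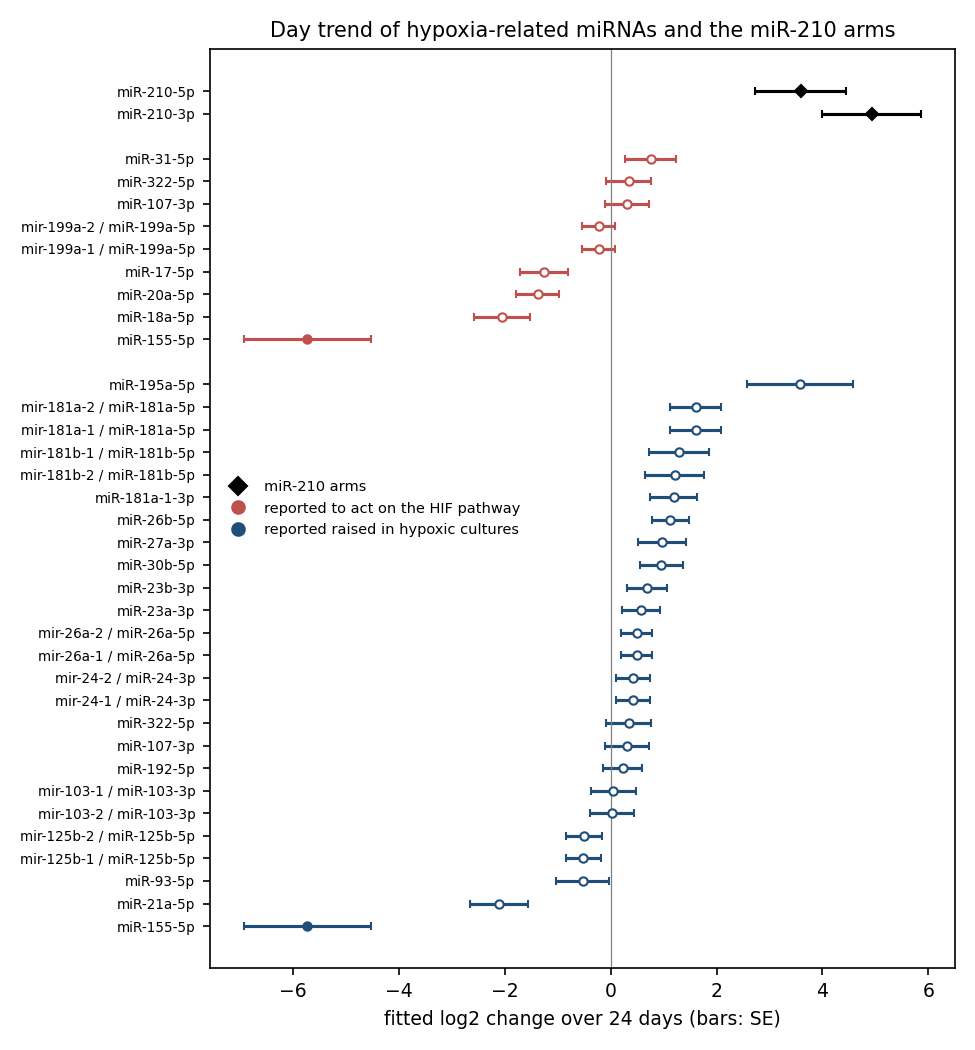
Fitted 24-day log2 change (with SE) of each tested entry of the 2 hypoxia-related lists and of the miR-210 arms (diamonds) in the 5 MC3T3 libraries. Filled circles passed at an adjusted p under 0.05 in edgeR, which holds only for miR-155-5p (-5.73, in both lists); the miR-210 arms lie at 4.93 and 3.59.

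The entry that fell was miR-155-5p, an inflammation-linked miRNA that is reported to target HIF-1α. It held 34.72 RPM at day 0 and 2.85, 3.22, 2.28 and 1.46 RPM on days 6, 10, 17 and 24 (log2 -5.73 ± 1.2, adjusted p = 0.0323, edgeR). The high level stands in the day 0 library alone, and without it the entry had too few counts to be tested. The same held without day 10 and with a minimum of 100 counts. The call was lost without day 17 (log2 -5.79, adjusted p = 0.055), on summed counts (-5.54, 0.0502) and in limma, where adding 1 RPM gave -3.16 (0.102) and adding 10 RPM gave -1.57 (0.268).

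Among miRNAs reported to act on the HIF pathway, 8 of 11 could be tested with day, as 9 entries. Of these, 0 rose and 1, the same miR-155-5p, fell in edgeR. At an unadjusted p under 0.05 it was 0 and 4, beside 50 and 53 of all 469 entries, and the DESeq2 Wald test called 0 higher and 3 lower, beside 19 and 11. The median change was -0.23 (0.01 with library totals), beside -0.12 (0.11) over all entries. miR-199a-5p, reported to target HIF-1α, held 22022 RPM over the MC3T3 days (-0.23 at both entries). miR-31-5p, reported to target the HIF inhibitor FIH, held 2888 RPM (0.76, adjusted p = 0.376, edgeR). miR-20a-5p (-1.38, adjusted p = 0.0994), miR-17-5p (-1.26, 0.142) and miR-18a-5p (-2.06, 0.0762) of one polycistronic cluster did not pass. miR-107-3p, reported to target the HIF partner ARNT, had 0.31, and miR-322-5p, whose human counterpart is reported to target CUL2, had 0.34. Without day 0, miR-17-5p, miR-18a-5p and miR-20a-5p passed as lower, beside 40 of all 459 entries. With day on a log2 scale, miR-31-5p (1077 RPM at day 0, 2897 at day 24) passed as higher in edgeR. In that fit miR-155-5p and miR-18a-5p passed as lower, beside 47 higher and 56 lower of all 469 entries. The lists share miR-107-3p, miR-155-5p and miR-322-5p.

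Between the materials, the split of the hypoxia-related miRNAs depended on the scaling. Of 26 entries raised in hypoxic cultures, 7 were higher and 4 lower in calvaria in edgeR, against 32.7% and 33.8% of all 551 entries. With DESeq2 size factors 14 were higher and 3 lower, and with upper quartile factors 4 and 6. The split over all entries moved from 180 higher and 186 lower with TMM to 216 and 128 with DESeq2 size factors and 143 and 251 with upper quartile factors. miR-181c-5p held 133 ± 8.9 RPM in calvaria (SD, n = 3) and 1.99 RPM over the MC3T3 days (log2 5.83). It passed the count filter only through calvaria, so its value is a description, although it is among the 7 entries counted as higher. miR-23a-3p was higher (1.99, 6.05e-05) and miR-125b-5p lower (-1.24 and -1.21 at its 2 entries, 0.000421 and 0.000553). Of the 9 entries acting on the HIF pathway, 2 were higher and 2 lower. miR-31-5p, the furthest of these, held 21.2 ± 7.31 RPM in calvaria (log2 -7.17, adjusted p = 2.07e-07, edgeR).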

How the data were processed

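Small RNA libraries were made with the NEBNext Small RNA kit from total RNA, per the labels' protocols. The authors deposited estimated counts for each pair of mature arm and precursor, together with RPM, in which each deposited value equals the count over its library total within 0.013 RPM. The submitters' processing notes name cutadapt 0.9.5, Bowtie 0.12.7 and mm10, with no role or order; quantifier and miRBase release: not given in the sources used here. MC3T3 columns carry a day 3 lower than the matching title, and days follow the titles.

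Estimated counts were rounded. Entries with 10 counts in at least 3 of 8 libraries (materials) or 2 of 5 (days) were tested with edgeR 4.0.16 in R 4.3.3 (quasi-likelihood, TMM, Benjamini-Hochberg over all entries, threshold 0.05). limma 3.58.1 and DESeq2 1.42.0 were alternatives. The day trend is linear with 3 residual degrees of freedom. Scripts were tested on simulated data. Intervals are exact at 95%. The hairpin was folded with RNAfold 2.7.2. Named miRNAs are both arms, the 4 closest by Pearson correlation (prior count 2) over the days and over all libraries, and of each list the 6 most abundant and any that passed with day; other list members were named after their values were seen. The members and lists were chosen with earlier results of these data known.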

Additional observations from a re-analysis of the deposited data

How the results depend on the processing

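For calvaria against all MC3T3 days the difference stayed below 0 in 17 of 17 alternatives for miR-210-3p (-2.26 to -0.79) and in 16 of 16 for miR-210-5p (-2 to -0.66). Only the alternative without day 0 fell under the threshold, for both arms. It is not read as a test, since day 0 is the low end of the course that chose miR-210. None of the others passed. Leaving out 1 library gave -2.02 to -1.27 and -1.81 to -0.85. With days 0 and 6 only the values turned to 1.07 and 0.63, and with days 17 and 24 only they were -2.64 and -2.21; both sets are given as values with no test. Fewer counts than the minimum of 100 kept miR-210-5p out of that alternative in both comparisons. The fitted day change ranged over left-out libraries from 3.91 to 6.73 for the 3p arm and from 2.48 to 5.48 for the 5p arm, which had 2.06 in limma with a pseudocount of 10. The calvaria minus MC3T3 difference in 3p share was 0.13 points, -0.32 to 0.677 with 1 library left out, among them -0.32 without calvaria 3 and -0.00545 without day 6; no setting passed. Entries passing between the materials numbered 366, 171 with a minimum of 100 counts and 207 to 389 with 1 library left out (211, 207 and 209 without calvaria 1, 2 and 3).

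With day, 14 entries passed, against 30 with the DESeq2 Wald test, 34 without a filter, 4 with a minimum of 100 counts, 9 on summed counts, 103 on a log2 day scale and 3 to 75 with 1 library left out (75 without day 0, 3 without day 6, 5 without day 17, 27 without day 24). limma passed 0 with a pseudocount of 1 and 0 with 10, with 75 and 82 of 469 entries at an unadjusted p under 0.05. At that unadjusted threshold edgeR called 61 of 250 entries with a minimum of 100 counts and 91 of 391 on summed counts. The list raised in hypoxic cultures had 24 and 19 entries in these edgeR fits, and the HIF list 8 in each. Of miRNAs raised in hypoxic cultures 1 entry passed, against 4 with library totals, 3 with the DESeq2 Wald test, 0 with limma at either pseudocount (10 and 12 unadjusted), 3 without a filter, 0 with a minimum of 100 counts (5 unadjusted), 0 on summed counts (6 unadjusted), 4 on a log2 day scale and 0 to 8 with 1 library left out (8 without day 0, 0 without day 10 or day 17, 3 without day 24). Of miRNAs acting on the HIF pathway 1 passed, against 3, 0 (2 unadjusted at either pseudocount), 2, 0 (3 unadjusted), 0 (4 unadjusted) and 3 under the same settings from the Wald test on, and 0 to 3 with 1 library left out (3 without day 0, 0 without day 17). The causes were not tested. No paired analysis was possible because the labels give no replicate numbers that the materials share and each day has 1 library.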
